A study of Mus musculus with 384 samples.

Results

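The genes described here are the 9 chemokine receptors and homing molecules Ccr8, Ccr4, Ccr6, Ccr7, Cxcr4, Cxcr6, S1pr1, Itgae and Cd44, which were listed by name. All 9 were found among the 50556 gene symbols of the deposited table, 30597 of which were counted at least once. They were followed in single Treg (regulatory T) cells of ear skin from mice, sorted on day 3 after 3 topical treatments with 5% imiquimod or with vehicle. Imiquimod is a Toll-like receptor agonist used on mouse skin as a model of psoriasis. Treg cells are CD4 T cells that express the transcription factor Foxp3 and restrain immune responses.

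Each treatment had 2 plates of 87 single-cell wells, and 2 mice per treatment are given in the design text, with no link between mouse and plate. Strain, age and sort gate are not given in the sources used here. The plate was therefore taken as the replicate, and p-values measure the spread between plates, which may be technical. A well was kept as a cell if it held at least 500 detected genes and at least 10000 counts. This left 38 and 44 cells on the imiquimod plates and 62 and 58 on the vehicle plates. Another 16 wells held 10 cells each and 20 were empty by their labels, which give no treatment. The empty wells held up to 1527760 counts and up to 885 detected genes, with a median of 47.5 genes. These highest values lie above both limits for a cell. Whether a single empty well passed both limits was not tested, so the filter may not set every cell apart from an empty well.

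Kept cells held between 47481 and 5946386 counts, with medians of 975 and 1093 detected genes on the imiquimod plates and 1040 and 1503 on the vehicle plates. The kept cells of a plate summed to between 67319087 and 99396458 counts. Counts are reads without molecular identifiers, so intervals and limits cover counting error only. At least 1 of 7 Treg markers reached 10 CPM, which is the count scaled to a common total per cell, in 80.5% of imiquimod cells and 84.2% of vehicle cells. Foxp3 itself reached 10 CPM in 34.2% and 27.3% of cells on the imiquimod plates, and in 35.5% and 34.5% on the vehicle plates. Markers of other cell types were found as well, the most common being dendritic and Langerhans cell genes, at 10 CPM in 30.5% of imiquimod cells and 44.2% of vehicle cells, and haemoglobin and other erythroid genes, in 50.0% and 7.5%. The summed level of the 7 dendritic genes was 536 and 878 CPM on the imiquimod plates and 309.5 and 887 CPM on the vehicle plates, and that of the 5 erythroid genes 654 and 341.1 CPM against 690.5 and 35.3 CPM. Mast cell genes reached 10 CPM in 2.44% of imiquimod cells and 12.5% of vehicle cells, with sums of 4.50 and 6.42 CPM for imiquimod, against 272.6 and 115.6 CPM for vehicle. Endothelial genes reached it in 4.88% of imiquimod cells and 18.3% of vehicle cells. Shares of cells without such markers are given below, and the part of these markers in the levels was not tested. Defining markers of B cells (Cd79b), natural killer cells (Ncr1), mast cells (Mcpt4, Tpsb2, Fcer1a), gamma delta T cells (Trdc, Trgc1) and cornified keratinocytes (Krt1, Lor) had no count in any kept cell.

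Chemokine receptors are G protein-coupled receptors that steer leukocytes along gradients of small secreted proteins. Ccr8 binds Ccl1 and Ccl8 and is carried by many Treg cells of skin. Ccr4 binds Ccl17 and Ccl22 and serves entry into inflamed skin, and Ccr6 binds Ccl20 made by epithelium. Ccr7 binds Ccl19 and Ccl21 and guides T cells and dendritic cells into lymph nodes, including from the skin through lymph. Cxcr4 and Cxcr6 bind Cxcl12 and Cxcl16. S1pr1 senses sphingosine 1-phosphate and is needed for exit from lymphoid organs, while its loss accompanies residence in tissue. Itgae encodes the CD103 chain of an integrin that pairs with the product of Itgb7 and holds T cells to E-cadherin on epithelium. Cd44 binds hyaluronan in the matrix and stays high on T cells that have met antigen.

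Each of the 9 genes was found in a smaller share of imiquimod cells than of vehicle cells, and for 8 of them the shares on the plates of the treatments did not overlap. Cd44 and Itgae were found most often in either treatment, S1pr1 was not found in any imiquimod cell, and Ccr4 was found in 1. Across the 14940 genes with a count in at least 5 kept cells, 42.3% were also lower without overlap in imiquimod, and 6.49% were higher. The median difference, imiquimod minus vehicle, was -10.5 percentage points over the 9 genes and -2.81 points over those 14940 genes. With 2 plates against 2, the exact two-sided permutation test cannot go below 0.333, which is the value 8 genes had.

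**Figure D1:**
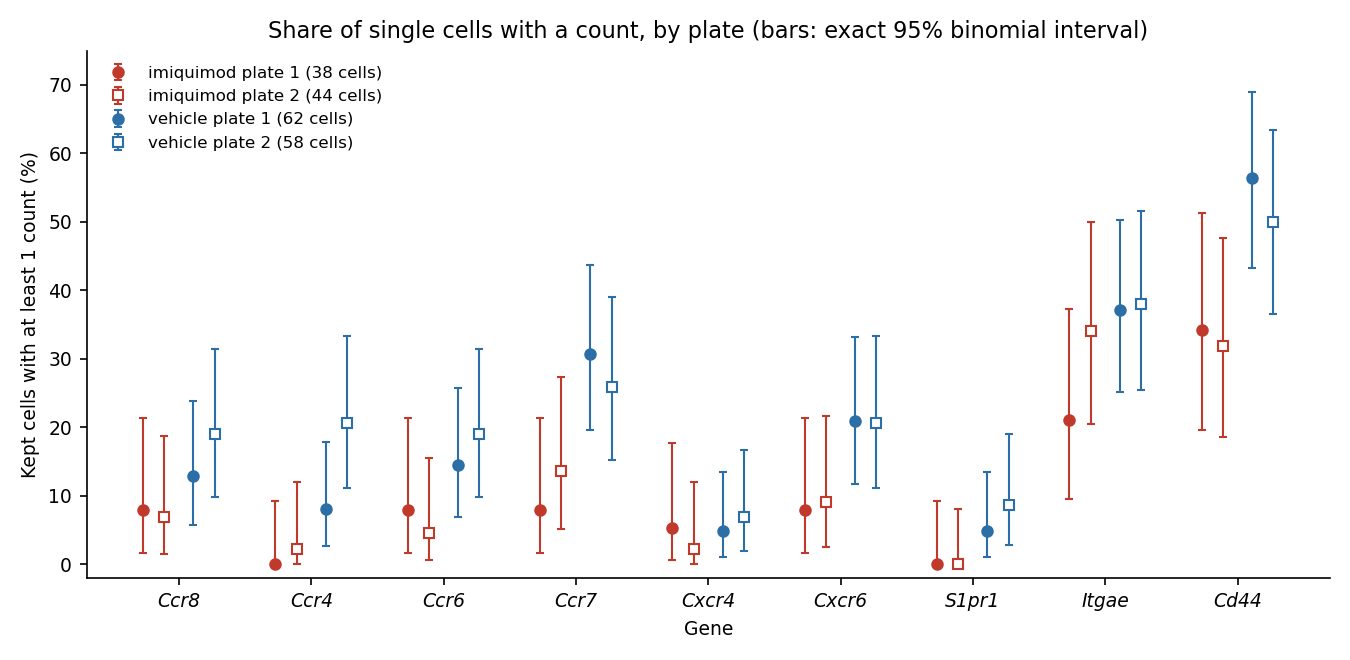
Share of kept cells with at least 1 count of each gene (y axis, percent) on the 2 imiquimod plates and the 2 vehicle plates, with the exact 95% binomial interval of each plate. The imiquimod plates lie below both vehicle plates for each gene but Cxcr4.

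Among the receptors tied to skin, Ccr8 had a count in 3 of 38 and 3 of 44 imiquimod cells, against 8 of 62 and 11 of 58 vehicle cells. This is 7.36% ± 0.761 in imiquimod and 15.9% ± 4.29 in vehicle (SD, n = 2 plates each). Ccr4 had a count in 0 and 1 imiquimod cells and in 5 and 12 vehicle cells, or 1.14% ± 1.61 and 14.4% ± 8.93. Both were lower on each imiquimod plate than on either vehicle plate. Ccr6 was found in 3 and 2 imiquimod cells and in 9 and 11 vehicle cells (6.22% ± 2.37 and 16.7% ± 3.15). Cxcr6 was found in 3 and 4 imiquimod cells and in 13 and 12 vehicle cells (8.49% ± 0.846 and 20.8% ± 0.197). The vehicle plates lay closer together for Cxcr6 than for Ccr4.

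Of the genes tied to lymph nodes and recirculation, Ccr7 had a count in 3 and 6 imiquimod cells and in 19 and 15 vehicle cells (10.8% ± 4.06 and 28.3% ± 3.38). S1pr1 had none in 82 imiquimod cells, which allows a share of up to 3.66%, against 3 and 5 vehicle cells (6.73% ± 2.67). Cxcr4, the chemokine receptor found in fewest cells, was found in 2 and 1 imiquimod cells and in 3 and 4 vehicle cells (3.77% ± 2.11 and 5.87% ± 1.46). Its plates overlapped, with an exact two-sided permutation p of 0.667 over 2 plates each. For the adhesion molecules, Itgae was found in 8 and 15 imiquimod cells and in 23 and 22 vehicle cells (27.6% ± 9.22 and 37.5% ± 0.590), and Cd44 in 13 and 14 imiquimod cells and in 35 and 29 vehicle cells (33.0% ± 1.69 and 53.2% ± 4.56). Itgae on the second imiquimod plate came close to the vehicle plates, while Cd44 was well below them on both imiquimod plates.

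The yield of cells and genes moved with these shares. Imiquimod wells were kept less often, at 43.7% and 50.6% against 71.3% and 66.7% for vehicle, and imiquimod cells with at least 2000 genes numbered 9 of 82 against 42 of 120. Within cells of 500 to 1000 genes, the mean number of the 9 genes found per cell was 0.429 in 35 imiquimod cells and 1.02 in 46 vehicle cells. Between 1000 and 2000 genes it was 1.26 in 38 imiquimod cells and 1.84 in 32 vehicle cells, and from 2000 genes on 2.0 in the 9 imiquimod cells and 3.17 in vehicle cells. The mean was thus lower in imiquimod in each of these wide bins, which pool the plates of a treatment, but not for each gene. For example, between 1000 and 2000 genes Itgae was found in 39.5% of imiquimod cells and 37.5% of vehicle cells, and Ccr8 in 7.89% and 6.25%. The part of gene yield in the lower shares was not tested.

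The threshold for detection changed which genes stayed apart. At 10 CPM or more in the cell, each of the 9 genes was still found in a smaller share of imiquimod cells, and 6 did so without overlap (Ccr8, Ccr4, Ccr6, Cxcr6, S1pr1 and Cd44), as did 42.4% of the genes at that level in at least 5 cells. Ccr7 then stood at 7.36% ± 0.761 in imiquimod and 13.1% ± 8.81 in vehicle, with overlapping plates, and Itgae at 23.8% ± 11.3 and 29.1% ± 4.52. Thinning each cell to 410000 counts gave the same 8 genes lower without overlap, against 44.9% of all genes so thinned, with 6 imiquimod and 14 vehicle cells left out as shallower. In cells of 1000 to 3000 genes, a range chosen after seeing the data, Ccr4, Ccr6, Ccr7, Cxcr4, Cxcr6 and S1pr1 were lower without overlap, as were 28.9% of all genes. Cd44 and Itgae then overlapped, and Ccr8 overlapped and was 0.522 points higher in imiquimod. Other filters, also chosen after seeing the data, left out cells with markers of other cell types at 10 CPM. Without cells that held B cell, macrophage, neutrophil, mast cell, keratinocyte, fibroblast or endothelial markers, 6 of the 8 genes stayed apart, Ccr6 and Itgae overlapped, and 26.6% of all genes were lower without overlap. Without cells that held dendritic, Langerhans or erythroid markers, which kept 14 and 22 imiquimod and 36 and 28 vehicle cells, the same 8 genes were apart, against 33.6% of all genes, and Cxcr4 was 0.794 points higher in imiquimod.

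The levels in single cells spread widely, from a few counts to over 1000 CPM of the same gene. Of the 25 cells with Ccr8, 13 were above 1000 CPM and 4 below 10 CPM, and its 6 imiquimod cells held 819 to 2442 CPM. Ccr8 thus had a median of 1802 CPM in its imiquimod cells and 642 CPM in its vehicle cells. Ccr6 was above 1000 CPM in 10 of 25 cells and below 10 CPM in 11. Cxcr6 was above 1000 CPM in 5 of 32 cells and below 10 CPM in 15. Both genes therefore had low medians over their cells (47.6 and 12.6 CPM) beside single cells of up to 22163 and 7628 CPM. The 22163 CPM of Ccr6 came from 1155 counts in a shallow cell of 52113 counts, and its cell with most counts (13272) was at 3196 CPM. Cd44 and Itgae were above 1000 CPM in the largest numbers of cells, 41 of 91 and 28 of 68.

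**Figure D2:**
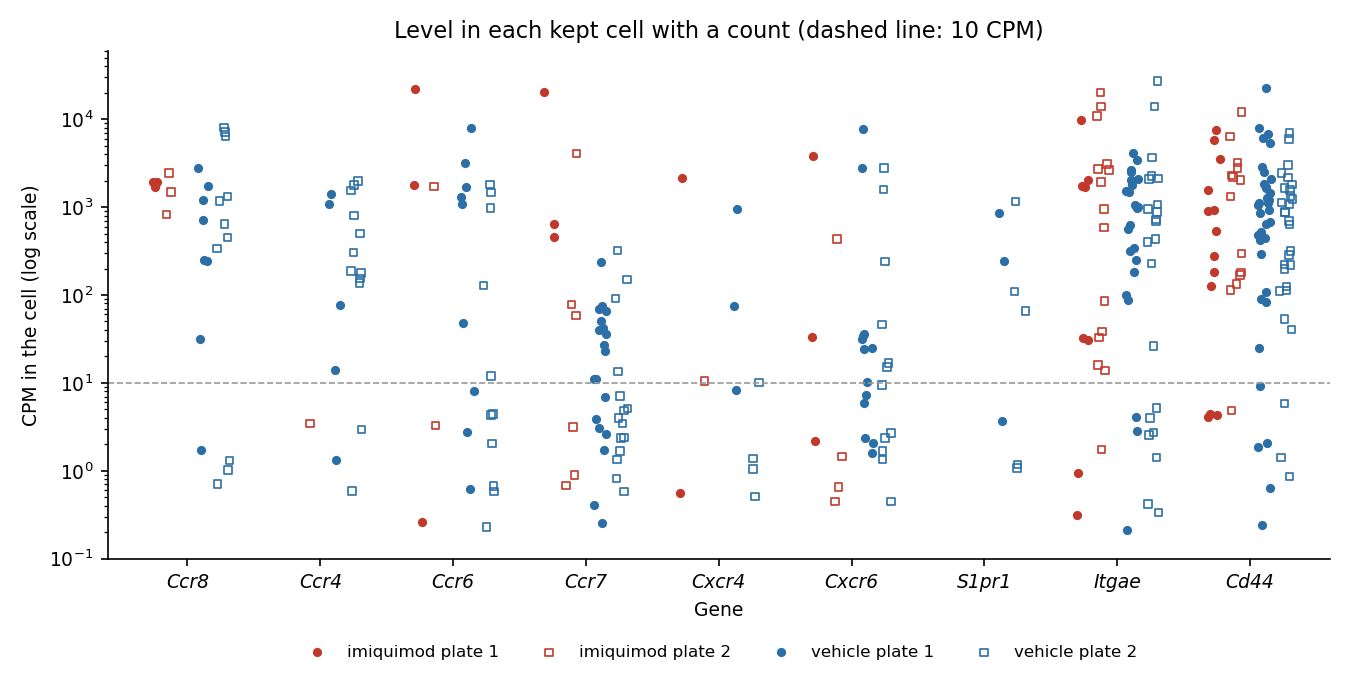
CPM of each gene in each kept cell with a count (log axis), with 1 point per cell, for the 2 imiquimod plates and the 2 vehicle plates. Ccr8 lies between 819 and 2442 CPM in the 6 imiquimod cells that have it, the highest vehicle cell for Ccr7 is at 320.5 CPM, and S1pr1 has no imiquimod point.

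In the summed counts of a plate, none of the 9 genes passed the test between treatments. The edgeR quasi-likelihood test on plate sums, with Benjamini-Hochberg adjustment over 14462 genes, called 0% of genes at 0.05, and its smallest adjusted p was 0.420. At the spread between these plates the test has little power even for large changes, so the lack of calls does not show that levels were alike. By edgeR's unadjusted p under 0.05, which 1.72% of the tested genes passed as higher and 9.82% as lower, 3 of the 9 genes stood out: Ccr7 as higher, and Ccr4 and S1pr1 as lower. The median log2 fold change, imiquimod over vehicle, was -0.05 over the 9 genes, and -0.26 over all genes tested. Of the 9, 3 were positive and 6 negative, where 53.4% of all genes tested were negative, and with DESeq2's size factors in place of TMM Ccr8, Cxcr6 and Cd44 turned positive. The levels given next are TMM-normalised CPM of the plate sums.

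Levels of 2 genes were higher on both imiquimod plates than on both vehicle plates, as for 13.7% of all genes tested, and those of 3 were lower, as for 31.1%. Itgae, found in fewer imiquimod cells, had the higher level there, at 1243 and 1212 CPM for imiquimod, against 769 and 557 CPM for vehicle. Its log2 fold change was 0.89 ± 0.70 (SE, edgeR adjusted p = 0.681). The cell with most Itgae counts held 60.9% and 28.2% of them on the imiquimod plates. Without the top cell of each plate, the plates overlapped in levels not scaled by TMM. Imiquimod plate 1 then lay below both vehicle plates and imiquimod plate 2 above both. The log2 fold change of Itgae without the top cells was 0.86 ± 0.88 (SE). Cd44 had 647 and 705 CPM for imiquimod, against 858 and 538 CPM for vehicle, with overlapping plates and a log2 fold change of -0.05 ± 0.81 (SE, edgeR adjusted p = 0.993). Ccr8 had 266.7 and 135.1 CPM for imiquimod, against 188.7 and 318.1 CPM for vehicle, also overlapping (-0.33 ± 1.38). Ccr6, with 101.2 and 46.9 CPM for imiquimod, against 380.3 and 144.9 CPM for vehicle, was lower on both imiquimod plates (-1.83 ± 1.66, edgeR adjusted p = 0.739). As a check of the cell label, Foxp3 had 1636 and 1224 CPM for imiquimod, against 992 and 387 CPM for vehicle. Il2ra, a chain of the interleukin-2 receptor that Treg cells carry, had 657 and 978 CPM for imiquimod, against 2621 and 1887 CPM for vehicle. By share of cells with a count, Foxp3 was found in 36.8% and 31.8% on the imiquimod plates, against 38.7% and 39.7% on the vehicle plates. For Il2ra these shares were 26.3% and 34.1%, against 59.7% and 58.6%.

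Ccr4 and S1pr1 came from vehicle cells almost entirely. S1pr1 had 0 counts in the summed imiquimod cells and 10065 in the vehicle cells. With 3 counts per plate as the floor, its reads per total count were at least 1074-fold fewer in imiquimod. This floor covers counting error only, as 1 cell held 76.8% and 89.6% of the counts on the vehicle plates. It therefore sets no lower limit on the difference between treatments. Ccr4 had 3 counts in imiquimod cells and 31544 in vehicle cells, a ratio of 0.000108 per total count (95% exact interval 2.24e-05 to 0.000317). These intervals treat reads as independent, while the counts of S1pr1 lay in 8 cells and those of Ccr4 in vehicle in 17. DESeq2's Wald test on the same sums gave adjusted p values of 3.12e-09 for Ccr4, 4.38e-06 for S1pr1 and 8.67e-06 for Ccr7, where it called 19.2% of all genes tested as lower and 6.69% as higher. By edgeR, the log2 fold change of Ccr4 was -12.8 with all plates, -11.9 without imiquimod plate 1 and -16.6 without imiquimod plate 2. That of Ccr7 was 5.73 with all plates, 4.65 without imiquimod plate 1 and 6.49 without imiquimod plate 2. In these fits the lone imiquimod plate is assumed to vary like the vehicle plates.

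Many of the plate sums lay mostly in 1 cell. Of the 36 plate sums of 9 genes on 4 plates, 3 were 0. In 21 of the other 33 more than 50% of the counts came from 1 cell, and in 8 more than 90%. Over the 33 sums the top cell held between 16.7% and 100% of the counts, with a median of 60.0%. For Cxcr6, 1 cell held 99.7% and 99.3% of the counts on the imiquimod plates and 83.7% and 51.5% on the vehicle plates. Its unscaled plate levels overlapped, with 181.2 and 6.75 CPM for imiquimod, against 146.6 and 180.2 CPM for vehicle. Leaving out the top cell of each plate gave 0.623 and 0.0512 CPM for imiquimod, against 24.3 and 92.8 CPM for vehicle. The log2 fold change of its TMM-normalised sums, -0.04 ± 1.95, was -5.95 without the top cells. For Cxcr4, 1 cell with 3333 counts gave 99.9% of the first imiquimod plate, and its log2 fold change of 1.29 ± 3.49 became -4.80 without the top cells and -5.34 without imiquimod plate 1. Cd44 and Itgae had the most even sums on vehicle plates, with 16.7% and 17.1% for Cd44 and 21.1% and 17.3% for Itgae in the top cell.

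**Figure D3:**
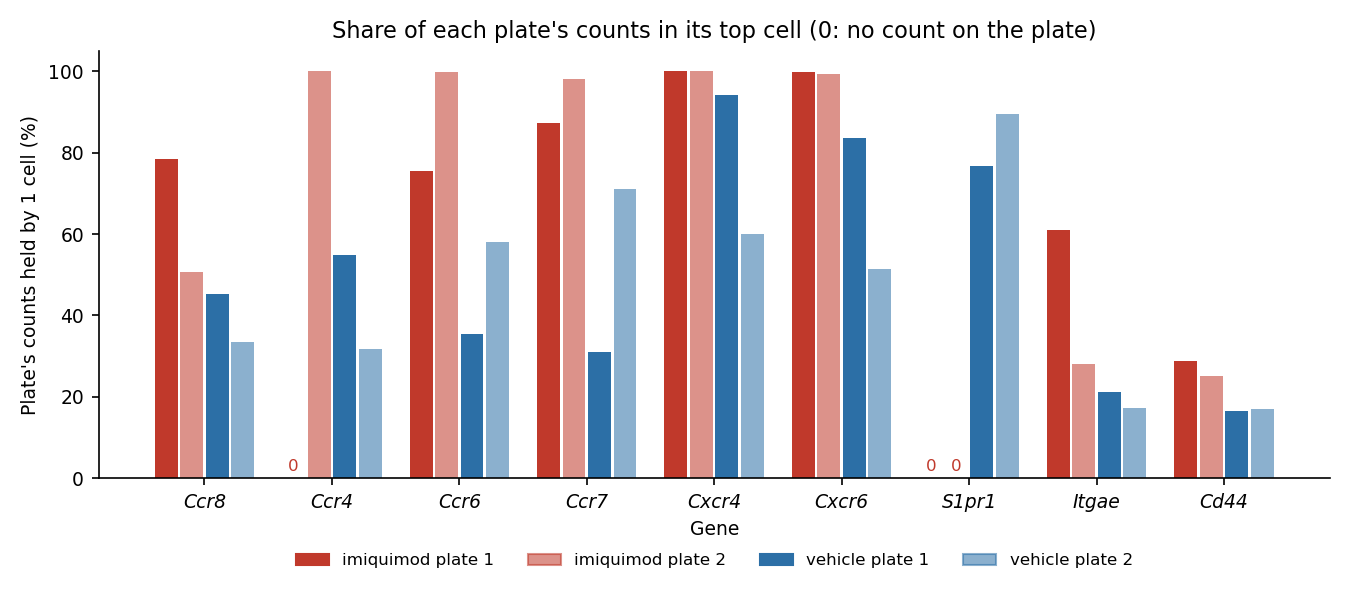
Share of each plate's counts of a gene that came from the cell with most counts (bars, percent), for the 2 imiquimod plates and the 2 vehicle plates. For Cd44 the bars are 28.9% and 25.2% in imiquimod and 16.7% and 17.1% in vehicle, while for Cxcr6 they reach 99.7%.

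Ccr7 ran in opposite directions by the share of cells and by level. Its plate level was 417.5 and 117.1 CPM for imiquimod, against 2.85 and 7.22 CPM for vehicle (log2 fold change 5.73 ± 2.20, SE; edgeR adjusted p = 0.420). On each imiquimod plate 1 cell carried most of it. Well 62 of imiquimod plate 1 held 17014 Ccr7 counts (20562 CPM, 87.2% of the plate's), and well 60 of plate 2 held 10705 (4085 CPM, 98.02%). Without the top cell of each plate, unscaled levels were 37.6 and 2.24 CPM for imiquimod, against 2.15 and 2.80 CPM for vehicle, so that the plates overlapped. The log2 fold change without the top cells was 4.49 ± 3.54 (SE; edgeR adjusted p = 0.580). Of the cells with Ccr7, 5 of 9 from imiquimod and 32 of 34 from vehicle had under 100 counts. The vehicle plates had medians of 10 and 3 counts per cell and a highest value of 651 counts. The mean of log2(CPM + 1) over cells, which weights cells equally, gave -0.27 for imiquimod over vehicle in place of 5.73.

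The 2 imiquimod cells with most Ccr7 differed in their other genes. Well 62 of plate 1 had none of the other 8 genes and no Treg marker at 10 CPM, and Lck, the kinase that starts T cell receptor signalling, was its only T cell marker at that level (1088 CPM). Well 60 of plate 2 had Ccr8 at 2442, Cd44 at 2775 and Itgae at 85.5 CPM. It also had the Treg markers Tnfrsf4 (8186 CPM), Ikzf2, Ctla4, Tnfrsf18 and Icos, Cd4 at 3062 CPM and no Foxp3 count. That cell held 2 dendritic cell markers too, H2-Ab1 of the MHC class II at 2232 CPM and the transcription factor Zbtb46 at 1006 CPM.

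H2-Ab1 and H2-Eb1, a pair of MHC class II chains, were the genes most like Ccr7 among 1629 genes with a count in at least 40 kept cells. Pearson's r of log2(CPM + 1), centred within plates, was 0.442 and 0.374 over the kept cells, and 0.359 and 0.344 over the 16 wells of 10 cells. H2-Ab1 had a count in 32 of 43 cells with Ccr7 (74.4%) and in 10.7% of cells without it, and Cd74, the invariant chain, in 65.1% and 25.8%. Over the whole dendritic and Langerhans list, at least 1 of 7 markers reached 10 CPM in 65.1% of cells with Ccr7 and 31.4% of those without. Itgax and Cd207, also on that list, had no count in any cell with Ccr7. They were found in only 4 and 1 of the other cells, too few for their absence to tell the groups apart. At 1 count, each other marker of the list was found in a larger share of cells with Ccr7 than of those without. Zbtb46 was found in 46.5% of cells with Ccr7 and 30.2% of those without, Epcam in 14.0% and 3.77%, and Flt3 in 6.98% and 4.403%. At 10 CPM this held for each of them but Flt3, which was at 0% with Ccr7 and 1.89% without. Zbtb46 was then at 20.9% and 15.1%. Cells with Ccr7 held a median of 1200 detected genes and cells without it 1087, but their median depth was lower, at 659286 counts against 1.59e+06. In cells without dendritic, Langerhans or erythroid markers, Ccr7 was found in 1 of 14 and 2 of 22 imiquimod cells, against 6 of 36 and 5 of 28 vehicle cells. The part of other cells' RNA in the Ccr7 level was not tested. Ccr7 was also the only one of the 9 genes with a count in an empty well, with 3 and 4 counts in 2 of 20. Those 2 wells held 305565 and 275669 counts in all.

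Vehicle cells with a few counts of Ccr7 often had a few of Cxcr6 as well. The genes were found together in 3 imiquimod cells and 14 vehicle cells, and in 15 of these 17 each gene had under 100 counts. In vehicle they were 14 of 25 cells with Cxcr6 (56.0%), against 21.1% of vehicle cells without it that had Ccr7. H2-Ab1 had a count in 14 of the 17. At 10 CPM, 6 cells held both.

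Cxcr6 counts cannot be read apart from those of Fyco1, a gene for vesicle transport whose annotated span overlaps Cxcr6 in RefSeq (GRCm38.p6). All 32 cells with Cxcr6 also had Fyco1, and in 21 of them the counts of the genes were equal to the read. Well 80 of vehicle plate 1 held 11097 counts of Cxcr6 and 11092 of Fyco1, well 14 of imiquimod plate 2 held 664 of each, and well 1 of imiquimod plate 1 held 12160 and 19689. In the wells of 10 cells, all 8 with Cxcr6 had Fyco1. Another 18 kept cells had Fyco1 without Cxcr6. How the authors' counting treated reads in overlapping genes, and whether it used strand, was not given in the sources used here, so the values of Cxcr6 are uncertain. Itgae overlaps Haspin, a kinase gene, in the same annotation, and all 9 cells with Haspin also had Itgae, with fewer Haspin than Itgae counts in each of the 8 that held 10 CPM of Itgae. Ccr6 overlaps the non-coding Gm33799, found in 12 of 25 cells with Ccr6 and 5.08% of those without, and Cd44 a small nuclear RNA gene, Gm23731.

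Several of these genes were often found in the same cell, most of all Itgae and Cd44. At 1 count, 35 of the 36 pairs of genes were found together in at least 1 cell, and only Cxcr4 and Cxcr6 never were. At 10 CPM, 29 pairs were. A cell held between 0 and 7 of the 9 genes, and the mean was 0.921 and 1.05 on the imiquimod plates and 1.90 and 2.09 on the vehicle plates. No gene was found in 34 of 82 imiquimod cells (41.5%) and 22 of 120 vehicle cells (18.3%). At least 1 of the 6 chemokine receptors was found in 31.6% and 27.3% of cells on the imiquimod plates and 54.8% and 63.8% on the vehicle plates.

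**Figure D4:**
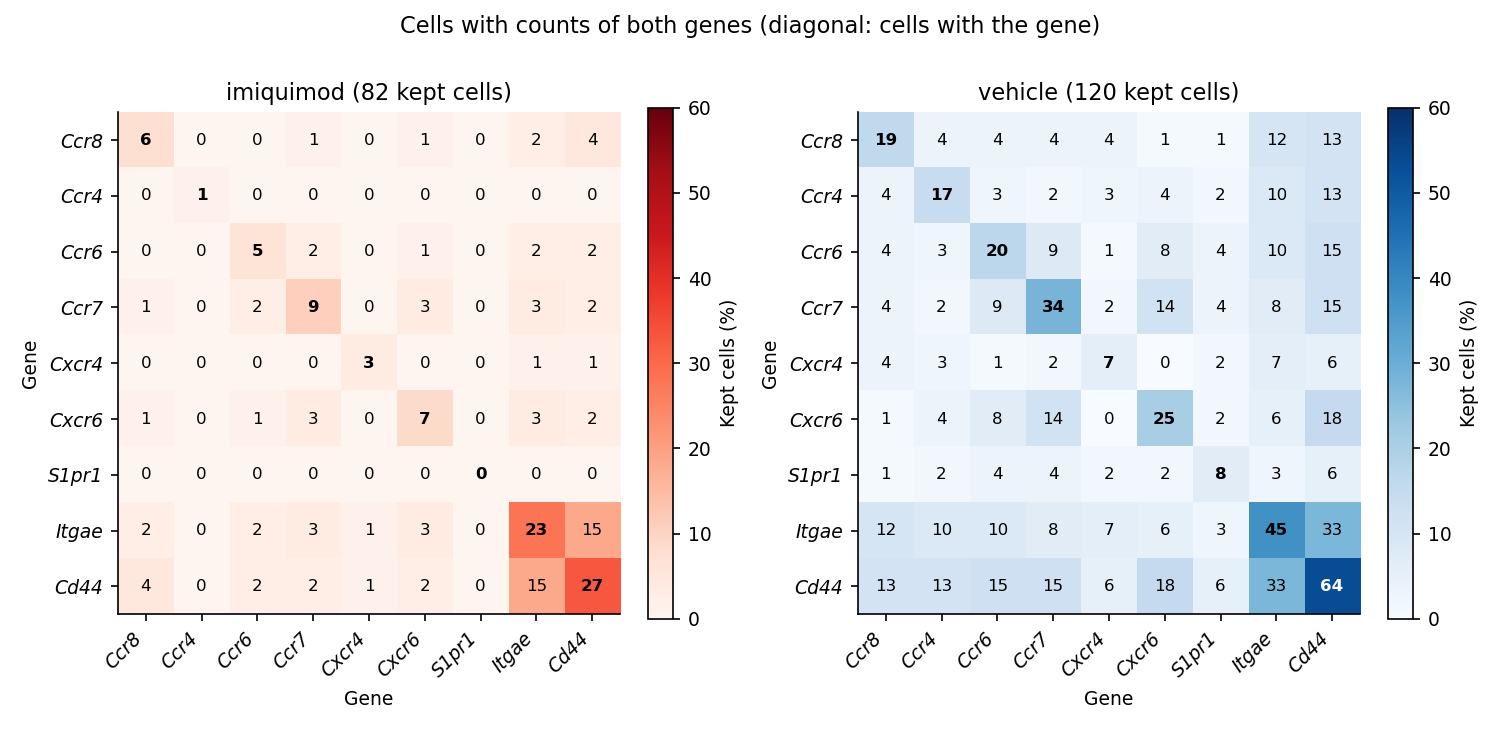
Number of kept cells with counts of both genes (off the diagonal) or of the gene (diagonal) among 82 imiquimod cells (left) and 120 vehicle cells (right), with colour giving the share of cells in percent. Itgae and Cd44 are found together in 15 imiquimod cells and 33 vehicle cells, and no pair that includes S1pr1 or Ccr4 occurs in an imiquimod cell.

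Itgae and Cd44 were found together in 7 and 8 imiquimod cells and 17 and 16 vehicle cells. Among cells with Itgae, 65.2% of those from imiquimod and 73.3% of those from vehicle had Cd44, against 20.3% and 41.3% of cells without Itgae. At 10 CPM they were found together in 37 cells, or 67.3% of cells with Itgae. Ccr4 cells held Cd44 in 13 of 18 cases and Itgae in 10, all from vehicle. Ccr8 cells held Cd44 in 17 of 25 and Itgae in 14 of 25. Ccr8 and Cxcr6 by contrast shared 2 cells of 25 and 32, and Ccr6 and Ccr7 shared 11 cells at 1 count and none at 10 CPM.

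Cells with most of these genes were rich in genes of every kind. Cells with none of the 9 held a median of 737 detected genes, cells with 2 held 1210, and cells with 4 held 2638. Cells with Ccr8, Ccr4 or Ccr6 had medians of 2376, 2996 and 2424 genes, against 1067, 1068 and 1064 for cells without. Foxp3 was found in 16 of 25 cells with Ccr8 (64.0%) and 33.3% of those without, and in 12 of 18 with Ccr4 (66.7%) and 34.2% without. The values were 27.9% with Ccr7 and 39.6% without, and 40.6% with Cxcr6 and 36.5% without. The T cell receptor gene Tcrb was found in all 10 cells with Cxcr4 and 67.7% of those without. It was found in 20 of 32 cells with Cxcr6 (62.5%) and 70.6% of those without. Some of the Cxcr4 cells held only traces of Tcrb, such as 3.88 CPM in well 25 of imiquimod plate 1 and 0.21 CPM in well 29 of vehicle plate 2. Others held more, such as well 21 of vehicle plate 2, with 1237 CPM. The part of gene yield in these shares was not tested.

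Some of the cells with most counts can be described one by one. Well 44 of vehicle plate 1 held Ccr4 at 1089, Ccr6 at 1299, S1pr1 at 845.5, Itgae at 4082 and Cd44 at 420 CPM with all 7 Treg markers at 10 CPM, and was the top cell of its plate for both S1pr1 and Itgae. Well 80 of the same plate held Ccr6 at 7871 and Cxcr6 at 7628 CPM, Tcrb at 7056 CPM and Foxp3 at 217.2 CPM, in 924 detected genes, with the endothelial gene Pecam1 at 2947 CPM. Well 33 of vehicle plate 2 had the most Ccr8 of any kept cell (13541 counts, 7996 CPM), with Il2ra as its only Treg marker at 10 CPM. Its plate also held the cell with 7 of the 9 genes, well 44, which had 8033 detected genes, above the median of 6624 in wells of 10 cells. The highest Itgae value, 27346 CPM, came from well 75 of vehicle plate 2, a cell with 573 genes, and the highest in imiquimod, 20182 CPM, from well 77 of plate 2. The cell with 3333 counts of Cxcr4, well 25 of imiquimod plate 1, had no Treg or T cell marker at 10 CPM.

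The adhesion molecules were compared with other genes in the same way. The genes most like Itgae were Ube2k (r = 0.386), a ubiquitin-conjugating enzyme, and Rel (0.370), the NF-kB subunit c-Rel, with 0.683 and 0.554 over the 16 wells of 10 cells. The genes most like Cd44 were Lmna (0.399), the nuclear lamin A, and Dusp1 (0.387), a phosphatase of MAP kinases, with 0.11 and -0.03 over the wells of 10 cells. The number of genes found per cell, on a log2 scale, itself correlated with Itgae at 0.291 and with Cd44 at 0.374 over the kept cells. The part of gene yield or depth in these likenesses was not tested. Ccr8, Ccr4, Ccr6, Cxcr4, Cxcr6 and S1pr1 were found in fewer than 40 cells and were not compared in this way.

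The partners and ligands of these genes showed no call either. Of 41 listed partners and other homing receptors, 30 were tested by edgeR, with 15 positive and 15 negative log2 fold changes, a median of 0.09 and 0 past the adjusted threshold, while 6 had an unadjusted p under 0.05. Itgb7, the partner chain of Itgae, had 2511 and 310.04 CPM for imiquimod, against 788 and 252.6 CPM for vehicle, with overlapping plates (1.44 ± 0.96). It was found in 26 of 68 cells with Itgae (38.2%) and 14.2% of cells without. Itgav, an integrin chain that binds matrix proteins, was the listed gene found most often (58.9% of kept cells), with 688 and 2640 CPM for imiquimod, against 1491 and 1001 CPM for vehicle. Selplg, which carries the ligand of selectins, was found in 67 cells and Cd69, which holds S1pr1 inside the cell, in 54, with 1168 and 728 CPM for imiquimod, against 869 and 421 CPM for vehicle. Ccr2 was found in 48 cells, and Gpr183, the oxysterol receptor, and Itgal, a chain of the integrin LFA-1, in 43 each. Each of these had overlapping plates. Of 12 ligands, 4 were tested and 2 were positive, with 0 calls and 1 unadjusted p under 0.05. The ligands Ccl1, Ccl17, Ccl19, Ccl20 and Spp1, named here after their values were seen, had no count in a kept cell.

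For 8 of the 9 genes, the share of wells of 10 cells with a count was above that of single cells of either treatment, and for Ccr7 it lay between them. They had between 4345 and 11124 detected genes and carried no treatment label, so they enter no comparison. Cd44 was found in 16 of 16 and Itgae in 15, with medians of 1090 and 570 CPM, and Ccr8 in 14, with a median of 67.4 CPM. Ccr4 was found in 9 wells, Cxcr6 in 8, Ccr6 in 7, Cxcr4 and S1pr1 in 6 each and Ccr7 in 4. A well held between 3 and 9 of the 9 genes, with a median of 5. In the empty wells 8 of the 9 genes had no count, so a share of up to 15% of such wells is possible for each.

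**Figure D5:**
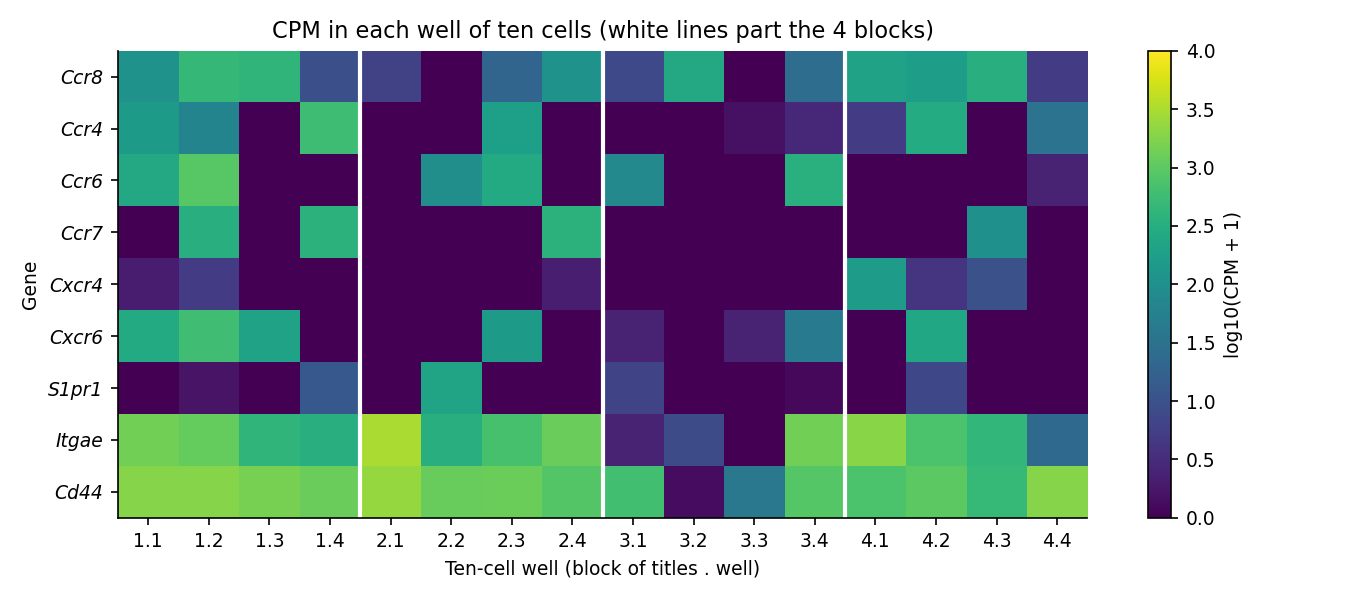
Level of each gene in the 16 wells of 10 cells, as log10(CPM + 1) by colour, in 4 blocks of 4 wells set by the titles. Cd44 and Itgae are high in 14 and 12 wells at 100 CPM or more, while Ccr7 is present in 4 wells and at 0 in the other 12.

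Ccr7 in these wells was either at 0 or high. Its 4 wells held 368.3, 318.7, 372.6 and 99.8 CPM, and none of the 16 had the few counts seen in vehicle single cells. It was thus found in 25.0% of wells of 10 cells, beside 11.0% of imiquimod and 28.3% of vehicle single cells. Ccr8 reached 462 CPM in its highest well and was at 100 CPM or more in 8 wells. S1pr1 was at 213.2 CPM in 1 well, which held 88.3% of its counts, and below 12 CPM in its other 5. Cxcr4 was at 159.1 CPM in 1 well, which held 88.7% of its counts. The third block had the lowest Cd44, between 0.339 and 890 CPM, against at least 482 CPM in each well of the other 3 blocks. Pooled over the 16 wells, unscaled levels of 8 genes lay within the range of the 4 single-cell plates, and that of Cd44, at 1198 CPM, lay above it (449 and 663 CPM on the imiquimod plates, 937 and 688 CPM on the vehicle plates).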

How the data were processed

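The authors deposited 1 matrix of read counts for all wells. It was made with Trimmomatic 0.39, STAR 2.7.3a and SAMtools 1.12 on mm39, as the submitters' processing notes give it. Counter, annotation and strand setting are not given in the sources used here. Per the labels' protocols, sorted cells were lysed, RNA was bead-purified, and oligo dT-primed cDNA was amplified and tagmented. No molecular identifiers are mentioned, so copies made by PCR are counted as separate reads.

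From these counts, CPM per cell, shares of cells with a count, and plate sums were computed (Python 3.11.15, pandas 2.3.3). Cells were sorted into wells, and doublets were not called. The sums were tested with edgeR 4.0.16 (quasi-likelihood test, filterByExpr, TMM), with Benjamini-Hochberg adjustment over all genes and a threshold of 0.05. DESeq2 1.42.0 and limma 3.58.1 (pseudocount 1) served as alternatives. Shares per plate were compared by exact permutation, and intervals are exact binomial (95%) or, for ratios of counts, exact conditional. The edgeR test was checked on simulated counts. It recovered the changes put in when the spread between plates was small, and recovered none when the spread was close to that of these plates. The 9 genes are all named, as are the pathway genes found in most cells and, for genes in at least 40 cells, the 2 most like genes. Members and lists were chosen with earlier results of these data known. Gene overlaps came from RefSeq on GRCm38.p6, an older assembly than mm39, so no coordinates are given.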

Additional observations from a re-analysis of the deposited data

Results flagged for a closer look

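Of the single-cell wells, 92 from imiquimod and 54 from vehicle fell below the filter of 500 genes and 10000 counts, and some held counts of these genes above the level of the empty wells, where each of the 7 genes given here had none in 20 wells. Cd44 had a count in 13 of these wells (7 imiquimod and 6 vehicle), with up to 13868 counts in a well. Itgae had a count in 9 (6 imiquimod and 3 vehicle), with up to 30569 counts. Cxcr4 had a count in 3, all from imiquimod plates, with up to 7645 counts, more than in any kept cell. Ccr4 had a count in 2 wells (0 imiquimod and 2 vehicle), Cxcr6 in 2 (2 imiquimod and 0 vehicle), Ccr8 in 1 from imiquimod and Ccr6 in 1 from vehicle. S1pr1 had none.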

How the results depend on the processing

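No paired analysis was possible because the labels tie no plate or well number of imiquimod to one of vehicle, and plates are nested in treatments. Of the 9 genes edgeR called 0, DESeq2 called 3, and leaving out each plate in turn gave 0 to 2. Of all genes edgeR called 0, DESeq2 3740, edgeR without an expression filter 9 and limma 0, and leaving out each plate gave 0 to 794, the highest without imiquimod plate 2 and 0 without either vehicle plate. The median log2 fold change of all genes was -0.26 with TMM and 0.11 with DESeq2 size factors. Log2 fold changes turned sign as follows. Both DESeq2 and its size factors in edgeR gave 0.21 for Ccr8, 0.64 for Cxcr6 and 0.40 for Cd44. Cells of at least 1000 genes gave 0.13 for Ccr8, -6.22 for Cxcr4, 1.04 for Cxcr6 and 0.19 for Cd44. Leaving out each gene's top cells gave -4.80 for Cxcr4 and 0.32 for Cd44. Limma on the mean log2(CPM + 1) of cells gave -0.27 for Ccr7, -0.017 for Cxcr4 and -0.76 for Itgae. Leaving out each plate gave -0.80 to 0.19 for Ccr8, -5.34 to 7.14 for Cxcr4, -4.16 to 1.03 for Cxcr6 and -0.33 to 0.27 for Cd44. Of the shares of cells, Ccr8 turned to 0.522 points in cells of 1000 to 3000 genes and Cxcr4 to 0.794 points in cells without dendritic or erythroid markers, and the shares kept their sign under each other alternative. The cause was not tested. The filters on cells without other markers and the range of 1000 to 3000 genes were chosen after seeing the data, as was the fit on cells with T cell receptor or CD3 counts. With 2 plates each and 1 cell holding most of many sums, these data limit any statement on levels.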
